A study of Mus musculus with 16 samples.

Results

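Arg1-positive macrophages were examined in single-cell RNA sequencing of immune cells from B16 mouse melanomas. They were chosen by their counts of unique molecular identifiers (UMIs, which mark single captured transcripts). A barcode counted as a cell if it held 200 genes or more and no more than 10% of its UMIs were mitochondrial, and as a member if it also held at least 3 UMIs of Arg1 and at least 10 of C1qa, C1qb and C1qc together, with no Cd3d, Cd3e or Cd3g. It also had to hold at most 1 UMI of Nos2, at most 1 of Lyve1, Cd163 and Cd209f together, at most 4 of Rsad2, Ifit1, Ifit2 and Ifit3 together, at most 2 of Mmp12 and none of H2-M2. Of 116552 barcodes in 8 lanes, 99357 passed the quality filter, 27418 of these were C1q macrophages without Cd3, and 2102 were members, which is 7.67% of the macrophages and 2.12% of the cells. The 17 genes of the rule chose these cells, so their levels are given as a description with no test. The 1580 members that could be tied to a mouse held 1755 Arg1 UMIs per 1000000 UMIs (CPM).

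The tumours grew under the skin of C57BL/6J mice from 1000000 cells of the Bro4.1 B16 line, either control cells or cells that lack B2m, which encodes the small subunit that MHC class I molecules need at the cell surface. On days 6, 9 and 12 the mice were injected intraperitoneally with 100 mcg of an antibody, either anti-CD40 or its rat IgG2a isotype control, and the tumours were harvested on day 14. CD45+ cells were enriched on magnetic beads and each mouse was marked with a hashtag antibody. There were thus 4 groups: control tumours under isotype (5 mice), control tumours under CD40 (2 mice), B2m-null tumours under isotype (5 mice) and B2m-null tumours under CD40 (4 mice). The labels of the samples call B2m-null a mouse genotype, but the study's design text assigns the deletion to the implanted cells. B2m itself was measured in the members, which are host cells, at 2903 ± 462 CPM (SD, n = 5) in B2m-null tumours under isotype and at 3759.7 ± 572 CPM (SD, n = 5) in control tumours under isotype, so the gene was expressed in both. The control CD40 mice came from 1 pool that was loaded on a pair of lanes, so that pool and its group cannot be told apart.

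Arg1 encodes arginase 1, which cleaves arginine to ornithine and urea and so competes with the nitric oxide synthase encoded by Nos2 for the same substrate. In tumours, arginase-bearing macrophages are known from regions with little oxygen, for their monocyte origin and for limiting T cells through arginine. Thbs1 encodes the matrix glycoprotein thrombospondin 1, Spp1 the secreted adhesion protein osteopontin, and Inhba the subunit that forms activin A. These 3 genes had been proposed as markers of the cells together with Arg1, with results of these data known.

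The lanes held 45985739 to 99264875 UMIs, and the median member held 5704.5 UMIs, 2117 genes and 4.55% mitochondrial UMIs, with lane medians from 4118.5 to 7222 UMIs. Hashtags tied 1580 members to 16 mice, 21 to 269 members each, marked 245 members as doublets (11.7%, against 8.30% of all barcodes) and left 277 without a mouse. In the first B2m-null isotype lane 52.7% of the members had no mouse. Pairs of lanes shared 41 to 92 barcode sequences, and no barcode was a member in more than 1 lane. Leaving out the C1q genes that the rule required, the other 8 genes of the macrophage list (among them Apoe, Adgre1, Csf1r and Mertk) were detected in each of the 16 mice, summing to between 3462 and 8719 CPM in the members. Among lists for other cells, the 8 T cell genes other than those of CD3, which the rule set to 0, reached 26.8 to 72.8 CPM in the 2 control CD40 mice against 3.27 to 16.2 in control isotype mice. Fibroblast genes reached 1747 CPM in 1 B2m-null isotype mouse with 35 members, and erythroid genes 344 and 459 CPM in another pair, against at most 3.27 CPM in the remaining mice. The part of these lists in the results below was not tested.

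The Arg1 threshold fell inside a continuous range of counts. Among cells that passed every other gate, 11907 held no Arg1 UMI, 1152 held 1, 525 held 2, 286 held 3 and 252 held 4, while 700 held 5 to 9, 510 held 10 to 19, 309 held 20 to 49 and 45 held 50 or more. Cells just outside the threshold, with 2 UMIs of Arg1, had a median of 5272 UMIs and those just inside, with 3, a median of 5143.5. The other gates also removed Arg1-bearing cells: of 6108 macrophages with at least 3 Arg1 UMIs, 34.4% were members. The Mmp12 gate was failed by 43.3% of them, the interferon gate by 22.1%, the Nos2 gate by 17.8%, the gate on Lyve1, Cd163 and Cd209f by 13.4% and the H2-M2 gate by 3.67%, with some cells failing several. The Nos2 gate was failed by 30.2% of the Arg1-bearing macrophages in control tumours under CD40 and 38.5% in B2m-null tumours under CD40, against 11.8% and 5.44% under isotype. The same gate was failed by more of all macrophages under CD40 too, at 16.6% and 18.6% against 5.61% and 1.89%. In control tumours the interferon and Mmp12 gates went the other way. The interferon gate removed 28.6% of the Arg1-bearing macrophages in control tumours under isotype and 9.64% under CD40 (20.1% and 20.3% in B2m-null tumours), and the Mmp12 gate 43.6% and 26.8% (44.1% and 47.4%). Over all macrophages of control tumours these 2 gates removed 19.6% and 21.3% under isotype and 8.27% and 10.8% under CD40. The H2-M2 gate removed more of the Arg1-bearing macrophages under CD40 (10.8% against 2.10% in control and 6.32% against 1.47% in B2m-null tumours), and the Lyve1, Cd163 and Cd209f gate fewer (5.48% against 8.88% and 7.59% against 24.3%). All macrophages moved alike, with 8.90% against 1.89% and 6.40% against 1.18% failing the H2-M2 gate and 4.94% against 8.78% and 8.96% against 20.3% the Lyve1, Cd163 and Cd209f gate.

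Arg1 lies on chromosome 10 (GRCm38, 10:24915221-24927484, minus strand), Thbs1 on chromosome 2 (2:118111876-118127133, plus strand), Spp1 on chromosome 5 (5:104435118-104441050, plus strand) and Inhba on chromosome 13 (13:16011851-16031621, plus strand). These are whole gene bodies, and the counts are summed over each gene. The sequences below are the 250 bases before the start of 4 genes that stood higher in the members in the comparison with Arg1-negative macrophages, a pair from the hypoxia list (Hilpda, Egln3) and a pair from the glycolysis list (Pgk1, Pgam1). They come from RefSeq (GRCm38.p6) and are shown because these 2 lists moved almost whole. Capitals mark ACGTG or, on the other strand, CACGT, the core letters of the element that hypoxia-inducible factors are known to bind.
Hilpda, chr6:29272238-29272487, plus strand: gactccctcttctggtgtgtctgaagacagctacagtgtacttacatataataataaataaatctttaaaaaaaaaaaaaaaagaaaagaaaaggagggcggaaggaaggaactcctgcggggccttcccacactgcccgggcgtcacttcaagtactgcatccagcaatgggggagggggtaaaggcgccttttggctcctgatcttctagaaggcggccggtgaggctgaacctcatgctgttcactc
Egln3, chr12:54203875-54204124, minus strand: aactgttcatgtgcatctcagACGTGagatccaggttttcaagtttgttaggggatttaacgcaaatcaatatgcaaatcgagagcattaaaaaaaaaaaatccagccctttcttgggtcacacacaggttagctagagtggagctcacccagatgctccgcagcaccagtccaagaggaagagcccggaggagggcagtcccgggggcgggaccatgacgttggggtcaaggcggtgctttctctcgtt
Pgk1, chrX:106186850-106187099, plus strand: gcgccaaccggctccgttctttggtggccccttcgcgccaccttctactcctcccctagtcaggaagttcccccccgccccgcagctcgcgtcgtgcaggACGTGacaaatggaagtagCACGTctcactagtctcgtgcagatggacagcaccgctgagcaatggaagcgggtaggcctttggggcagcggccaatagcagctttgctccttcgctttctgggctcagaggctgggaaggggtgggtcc
Pgam1, chr19:41911621-41911870, plus strand: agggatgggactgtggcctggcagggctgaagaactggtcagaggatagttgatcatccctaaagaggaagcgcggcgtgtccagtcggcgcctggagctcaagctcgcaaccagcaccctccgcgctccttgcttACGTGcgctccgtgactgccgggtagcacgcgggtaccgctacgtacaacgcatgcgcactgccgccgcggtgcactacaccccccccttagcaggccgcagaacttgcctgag
The letters occurred once before Egln3 and Pgam1, 2 times before Pgk1 and not in the window of Hilpda. They were present in 14 of 21 windows (66.7%, 16 genes) of the hypoxia genes that were higher in the members and in 9 of 21 windows (42.9%, 15 genes) of the glycolysis genes. Over all promoter windows of that length the share was 16.6%, over the genes tested 22.4%, over all genes higher in the members 23.1% and over all genes lower 23.0%. Since these 2 lists were called almost whole, their shares describe the lists and not the members. A match is only a run of letters, and binding was not measured.

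The first question was which genes outside the rule go with Arg1 among otherwise like macrophages. Members were compared within each of the 16 mice with Arg1-zero macrophages, which passed the same gates but held no Arg1 UMI. Counts were summed per mouse and class and tested with edgeR's quasi-likelihood test with the mouse as a block. Differences are log2 fold changes, member minus Arg1-zero, with their standard error, and a gene was called at an adjusted p (Benjamini-Hochberg over 10366 genes) under 0.05. In all, 1164 genes were higher in the members (11.2% of those tested) and 1175 lower (11.3%), with a median difference of -0.03. The median depth was 5704.5 UMIs in members and 5245 in Arg1-zero cells, so shares of cells with a UMI were taken after thinning every cell to 5000 UMIs and leaving out shallower ones.

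Genes of the response to low oxygen were higher in the members almost as a whole. Of 21 tested, 19 were called higher and 1, Car9, lower (-0.47 ± 0.16, not called without the first CD40 lane of either genotype, either control isotype lane or the second B2m-null isotype lane, highest edgeR adjusted p = 0.140), with a median difference of 1.23. Egln3, an oxygen-sensing prolyl hydroxylase, stood at 54.2 ± 22.6 CPM in members and 7.49 ± 3.83 CPM in Arg1-zero cells (SD, n = 16), a difference of 2.97 ± 0.13 with the same sign in 16 of 16 mice (edgeR adjusted p = 1.89e-17). Hilpda, a lipid droplet protein, stood at 279 ± 64.4 against 89.5 ± 12.2 CPM and differed by 1.73 ± 0.07 (edgeR adjusted p = 9.64e-18). Among genes of this list picked after their values were seen, Vegfa, an angiogenic growth factor, differed by 2.02 ± 0.14 and the glucose transporter gene Slc2a1 by 1.32 ± 0.09. Glycolysis moved the same way: 15 of 17 genes were higher and none lower, with a median of 0.72. Pgk1, which makes ATP in that pathway, differed by 0.96 ± 0.05 and Pgam1, a mutase of its lower part, by 0.73 ± 0.04. Hif1a, the oxygen-regulated transcription factor, differed by 0.81 ± 0.07, in 16 of 16 mice.

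Genes of recently recruited monocytes were all higher: 15 of 15 tested, with a median of 0.98. Fn1, which encodes fibronectin and is made by monocytes, stood at 729.9 ± 404 CPM in members against 99.9 ± 45.5 CPM in Arg1-zero cells (SD, n = 16) and differed by 2.91 ± 0.15 (edgeR adjusted p = 9.25e-16). S100a6, a calcium-binding protein of monocytes, differed by 1.20 ± 0.08. Genes of settled macrophages split: 6 of 22 were higher and 12 lower. Vcam1, an adhesion molecule, differed by -1.20 ± 0.11 (edgeR adjusted p = 5.43e-10) and Cd81, a membrane tetraspanin, by -0.72 ± 0.06, while Pf4, a chemokine of tissue macrophages, differed by 1.01 ± 0.08. Proliferation genes were lower as a group: 21 of 22 were called lower and none higher, with a median of -0.65, as for Stmn1 (-0.74 ± 0.08) and Hmgb2 (-0.55 ± 0.06). Marker lists of some other cells were lower in members too: B cell genes summed to a median of 63.7 against 147 CPM, NK cell genes to 9.37 against 48.6 CPM and fibroblast genes to 14.3 against 71.0 CPM. Others were higher: classical monocyte markers at 1071 against 537 CPM, conventional dendritic cell genes at 46.2 against 29.4 CPM and platelet genes, in members almost all Ppbp, at 16.7 against 2.85 CPM. Their part in the calls was not tested.

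Matrix and remodelling genes were next: 20 of 30 were higher and 1, Igf1, lower (-0.44 ± 0.11), with a median of 0.97, counts that include the proposed markers. Thbs1, one of the proposed markers and so given with no test, stood at 583 ± 434 CPM in members and 91.4 ± 47.5 CPM in Arg1-zero macrophages (SD, n = 16), a difference of 2.69 ± 0.11 with the same sign in each of the 16 mice. After thinning, 50.04% of members and 14.6% of Arg1-zero macrophages held a Thbs1 UMI, against 13.1% of T cells, which should lack the gene, so the share in Arg1-zero macrophages was near that level. Spp1 stood at 1506 ± 799 against 460.0 ± 211 CPM (SD, n = 16) and was higher in 15 of 16 mice, and 61.6% of members held a UMI against 38.7% of Arg1-zero macrophages and 19.96% of T cells. Inhba was scarce. It stood at 16.7 ± 19.6 against 4.39 ± 3.42 CPM (SD, n = 16) and was higher in 12 of 16 mice. Only 5.05% of members held a UMI, against 1.60% of Arg1-zero macrophages and 3.83% of T cells. The T cell share lay above that of Arg1-zero macrophages, so it sets no floor for Inhba. Adam8, a membrane metalloprotease of myeloid cells, differed by 1.28 ± 0.06 (edgeR adjusted p = 2.14e-17). Median UMIs before thinning were 8495 in members, 8757 in Arg1-zero cells and 7284 in T cells.

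Inflammatory cytokines and chemokines were also higher: 20 of 28 genes, with 1 lower (Il18, -0.35 ± 0.09, not called without the second B2m-null isotype lane, edgeR adjusted p = 0.0891) and a median of 0.91. Cxcl3, which attracts neutrophils, had the largest difference among genes with a mean of at least 20 CPM that moved one way in every mouse: 153 ± 151 against 8.66 ± 6.31 CPM (SD, n = 16), or 4.23 ± 0.28 (edgeR adjusted p = 2.11e-13). The spread of Cxcl3 among mice was nearly as large as its mean. Ccl6, a chemokine for monocytes and macrophages, differed by 1.29 ± 0.08 and Clec4d, a C-type lectin receptor, by 1.26 ± 0.08. Of genes of alternative activation, 11 of 23 were higher and none lower. Ccl24, a chemokine for eosinophils, differed by 2.28 ± 0.24, and its level in the members ran from 4.63 to 553 CPM. Of suppressive and costimulatory ligands 11 of 22 were higher and none lower, among them Nt5e, the ecto-enzyme that makes adenosine (8.81 ± 8.15 against 0.524 ± 0.626 CPM, higher in 14 of 16 mice) and the inhibitory receptor gene Lilrb4a (0.42 ± 0.05).

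The rest of the arginine pathway did not follow Arg1 as a block. Of 22 arginine and polyamine genes, 6 were higher and 5 lower, and the median was 0.03. Higher were Smox, which oxidises spermine (1.18 ± 0.09), the arginine transporter gene Slc7a2 (1.47 ± 0.13), the mitochondrial arginase Arg2 (1.38 ± 0.32, at 5.27 ± 2.90 CPM), Ass1, which rebuilds arginine from citrulline (0.85 ± 0.11), and, by less, Slc3a2 (0.27 ± 0.05) and Sms (0.26 ± 0.07, not called after thinning, at 0.07, nor in cells with 5000 to 20000 UMIs or members with at least 10 Arg1 UMIs). Lower were another arginine transporter gene, Slc7a1 (-0.45 ± 0.11, not called after thinning, with at least 10 Arg1 UMIs or without cells holding melanoma UMIs, where it was -0.15), and Paox (-0.50 ± 0.13), Srm (-0.38 ± 0.11, not called without the second B2m-null CD40 lane, edgeR adjusted p = 0.0550), Aldh18a1 (-0.71 ± 0.21, not called after thinning, at -0.33, nor in cells with 5000 to 20000 UMIs, with lanes as the unit or without cells holding melanoma UMIs) and Ckb (-0.36 ± 0.06). Odc1, the enzyme that turns ornithine into putrescine, stood at 172 ± 41.6 CPM in members and 175 ± 30.0 CPM in Arg1-zero cells (SD, n = 16) and did not pass the test (edgeR adjusted p = 0.994).

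Signalling and regulator lists followed. Of 21 genes of TGF-beta and activin signalling, 6 were higher, the proposed marker Inhba among them, and 2 lower. The 2 lower ones encode the TGF-beta receptors: Tgfbr1 differed by -0.80 ± 0.09 and Tgfbr2 by -0.59 ± 0.07, each in 16 of 16 mice. Id2, another gene of this list, differed by 0.76 ± 0.05. Among 12 receptors of Spp1 and Thbs1, 5 were higher and 3 lower, with Cd36, a thrombospondin receptor, at 1.00 ± 0.09, Sdc4 at 0.44 ± 0.04, and Sirpa at -0.21 ± 0.04. Of the regulators that textbooks place upstream of Arg1, 8 of 21 were higher and 2 lower: Cebpb differed by 0.71 ± 0.06, Pparg by -0.45 ± 0.10 and Cebpd by -0.39 ± 0.10 (not called in cells with 5000 to 20000 UMIs or with at least 10 Arg1 UMIs, at the smallest -0.25). The amino-acid stress list split into 5 higher, such as the cystine transporter gene Slc7a11 (1.43 ± 0.18), and 8 lower, such as Shmt2 (-0.87 ± 0.13), of 18. For CD40 and NF-kB genes it was 7 higher and 2 lower of 25, and for interferon-gamma and MHC class II genes 1 higher and 6 lower of 25. In the lipid-associated list 17 of 25 were higher and 3 lower, with Ctsl (1.26 ± 0.07) and Lpl (-0.31 ± 0.08) at either end. In the iron list 5 of 14 were higher and 3 lower, with the heme-degrading Hmox1 at 1.18 ± 0.10 and ceruloplasmin, Cp, at -1.57 ± 0.14. Negative differences were also measured for pigment-cell genes, Pmel (-2.35 ± 0.17), Dct (-2.10 ± 0.18) and Mlana (-1.99 ± 0.20), and the melanoma list summed to a median of 87.0 CPM in members and 218 in Arg1-zero cells. Pmel and Dct turned to 0.21 and 0.45 when only cells with 5000 to 20000 UMIs were kept, and Mlana to -0.12, no longer called, so that no direction is read from these 3 genes.

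**Figure D1:**
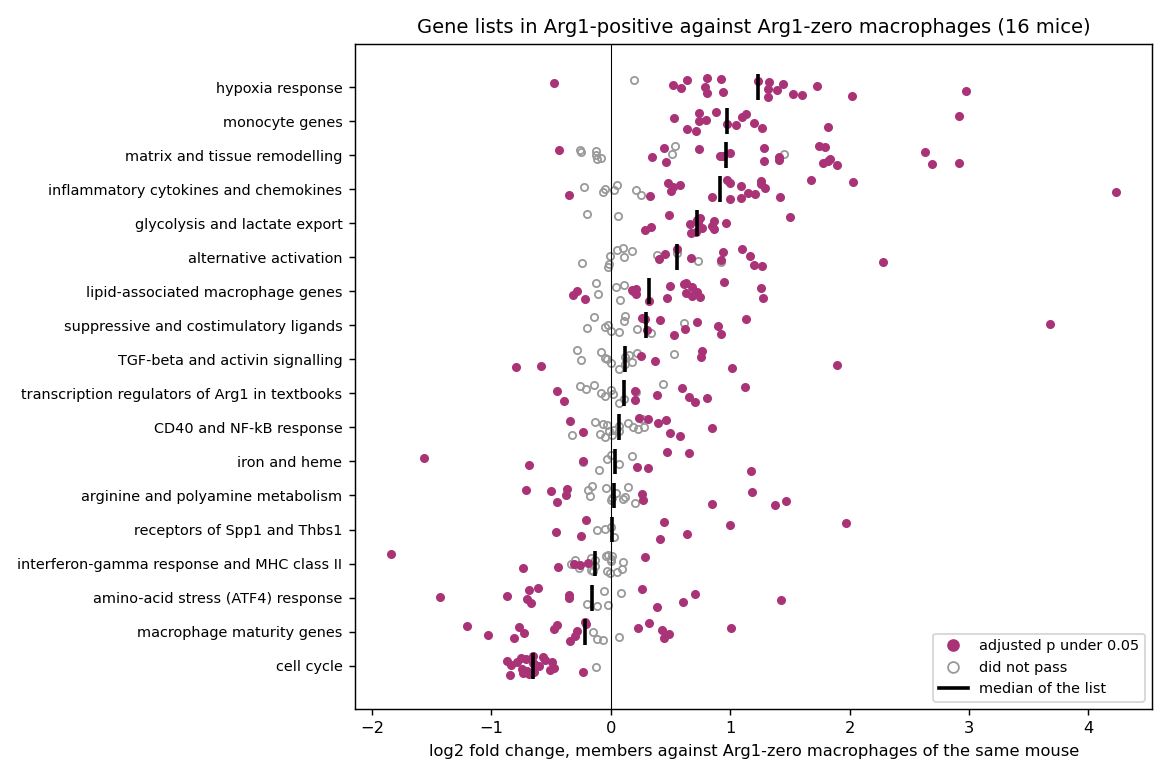
Log2 fold changes (x axis, member minus Arg1-zero, edgeR) of every gene tested, 1 point per gene, in each gene list (y axis), filled where the adjusted p was under 0.05, with the list median as a bar. The hypoxia, monocyte and glycolysis lists lie to the right (medians 1.23, 0.98 and 0.72) and the cell cycle list to the left (-0.65).

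The same genes were followed over the whole range of Arg1, as a description with no test. Every cell was first thinned to 5000 UMIs, shallower ones were left out, and the gates were applied to the thinned counts. From cells with no Arg1 UMI (7570 cells) to cells with 20 or more (131 cells), pooled Thbs1 went from 84.2 to 1861 CPM and Fn1 from 75.8 to 2014 CPM. With 3 to 4 Arg1 UMIs (409 cells) Thbs1 stood at 417 and Fn1 at 416 CPM. Both were higher in each higher Arg1 class (0, 1 to 2, 3 to 9, and 10 or more UMIs) in 8 of 8 lanes. Cxcl3 went from 9.22 to 731 CPM and Egln3 from 8.24 to 133 CPM over the same range. Each of these 2 was ordered in this way in 6 of 8 lanes. Spp1 went from 549 to 2762 CPM and Hmox1 from 932 to 4200, with order in 3 and 5 of 8 lanes. Vcam1 ran the other way, from 378 to 79.4 CPM, falling at every step in 7 of 8 lanes, and the proliferation gene Mki67 from 143 to 33.6 CPM, in 4 of 8 lanes at every step. Inhba was at 5.55 CPM with no Arg1 UMI and between 13.5 and 24.4 CPM in all higher bins, with no order among them. Ppbp, a platelet chemokine chosen after its values were seen, went from 1.85 to 328 CPM but was ordered in only 2 of 8 lanes. The other platelet genes were near 0, with 2 UMIs each of Itga2b and Gp9 and none of Gp1bb in the members assigned to a mouse. The lanes did not contribute evenly: the cells with 10 or more Arg1 UMIs numbered 6 to 72 in 7 lanes, and 163 came from the second B2m-null isotype lane.

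**Figure D2:**
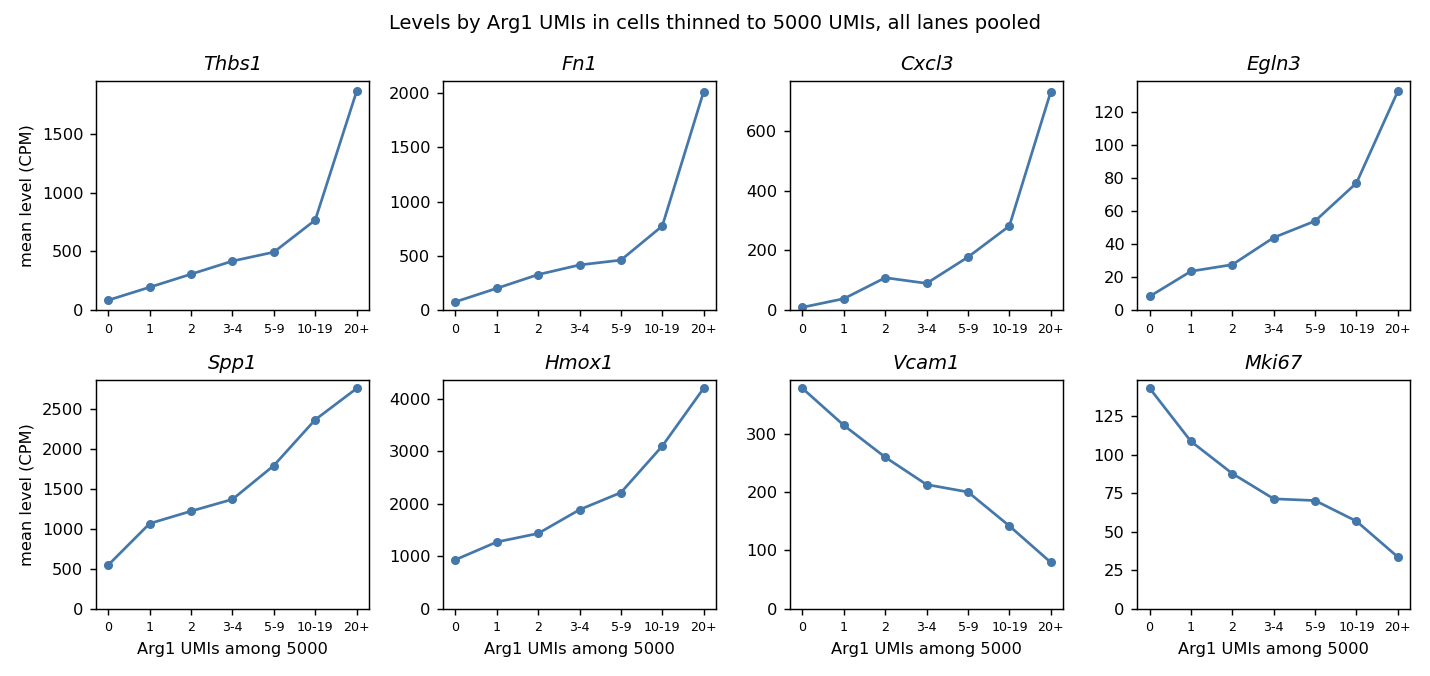
Pooled level (y axes, CPM, linear, 1 panel per gene) by the number of Arg1 UMIs per cell after thinning to 5000 UMIs (x axes), over all 8 lanes, with no error shown. Thbs1 and Fn1 climb at every step to 1861 and 2014 CPM, Cxcl3 climbs but for a dip at 3 to 4 UMIs, and Vcam1 and Mki67 decline to 79.4 and 33.6 CPM.

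Members were next set against 2 kinds of macrophage that the rule keeps out, those with Nos2 and those with Mmp12. The interferon, H2-M2 and Lyve1 kinds were not compared. Nos2 macrophages passed every gate but that on Nos2 (at least 2 UMIs, 905 cells) and could hold Arg1. In 8 mice with at least 20 cells of both kinds, 201 genes were higher in the members (3.03% of 6628 tested) and 337 lower (5.08%). The total of 538 fell to 332 without the second B2m-null CD40 lane and to 344 without the first control CD40 lane. The Nos2 class stood higher in the interferon-gamma and MHC class II list, where 16 of 25 genes were lower in the members and none higher: Cxcl9, a chemokine for T cells, differed by -1.14 ± 0.08 and the GTPase gene Gbp2 by -1.02 ± 0.08, each in 8 of 8 mice. It also stood higher in hypoxia genes (11 of 18 lower in the members, none higher) and glycolysis genes (7 of 16 lower, none higher), as for Ero1l (-0.96 ± 0.12) and Hk2 (-0.85 ± 0.11). Acod1, the enzyme that makes itaconate, differed by -1.44 ± 0.14 and the protein C receptor gene Procr by -2.42 ± 0.20. Slc7a2, the inducible arginine transporter, stood at 32.9 ± 14.4 CPM in members and 113 ± 29.3 CPM in Nos2 macrophages (SD, n = 8), a difference of -1.71 ± 0.16 (edgeR adjusted p = 1.06e-07). Cd40, the receptor that the antibody binds, differed by -1.04 ± 0.14.

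Inhba was higher in Nos2 macrophages than in members, at 71.3 ± 67.7 against 20.3 ± 14.9 CPM (SD, n = 8), in 7 of 8 mice. Thbs1 and Spp1 were the reverse: Thbs1 stood at 319.8 ± 124 CPM in members against 178 ± 117 and Spp1 at 1488 ± 794 against 657 ± 356 (SD, n = 8), each higher in the members of all 8 mice. These 3 proposed markers are given with no test. Members were higher in monocyte genes (7 of 14, none lower) and maturity genes (11 of 21 higher, 2 lower), such as Fn1 (1.37 ± 0.15), Pf4 (1.22 ± 0.14) and F13a1, a clotting factor subunit (1.07 ± 0.10). Ltc4s, which makes leukotriene C4, differed by 1.71 ± 0.19.

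Mmp12 macrophages (at least 3 UMIs of Mmp12, every other exclusion gate passed, 3051 cells) were not chosen on Arg1 either and were compared in 15 mice. Arg1 stood at a mean of 625 CPM in them, 723 CPM in Nos2 macrophages and 1726 CPM in members, so both class comparisons also differ in Arg1. Here 1084 genes were higher in the members (13.5% of 8010 tested) and 1057 lower (13.2%). Monocyte genes were higher in the members throughout (15 of 15, median 1.16). Ccr2, the receptor that draws monocytes into tissue, stood at 277 ± 116 CPM in members and 91.9 ± 52.4 CPM in Mmp12 macrophages (SD, n = 15), a difference of 1.58 ± 0.13 (edgeR adjusted p = 5.88e-11), and Ly6c2, a surface marker of classical monocytes, differed by 1.67 ± 0.17. Interferon-gamma and MHC class II genes were higher in 21 of 24 and lower in none, such as the peptide transporter gene Tap1 (0.57 ± 0.07). The lipid-associated list was lower in 21 of 25 genes and higher in 1, with Gpnmb, a glycoprotein of lipid-laden macrophages, at 216 ± 95.5 against 930.0 ± 408 CPM (SD, n = 15), or -2.14 ± 0.11. Mmp13, a collagenase, differed by -2.80 ± 0.13 and Atp6v0d2, a proton pump subunit, by -2.11 ± 0.14. Hypoxia genes were lower in 11 of 21 and higher in 1. Slc7a2 differed by -0.80 ± 0.12 and Sat1, which acetylates polyamines, by -0.59 ± 0.06. By medians over 16, 8 and 15 mice, classical monocyte markers summed to 1071 CPM in members, 636 in Nos2 and 322 in Mmp12 macrophages. In the same order B cell genes summed to 63.7, 54.9 and 30.4 CPM, neutrophil genes to 64.0, 72.8 and 99.8, conventional dendritic cell genes to 46.2, 8.63 and 25.7, NK cell genes to 9.37, 5.98 and 15.6, and platelet genes to 16.7, 0 and 16.5. These medians rest on unlike sets of mice. More macrophages failed the Nos2 gate under CD40 than under isotype, so class and treatment are mixed in them. The part of these lists in both class comparisons was not tested.

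Of the proposed markers, Thbs1 was higher in members than in Mmp12 macrophages (561 ± 440.1 against 206 ± 89.4 CPM, in 14 of 15 mice), and Fn1 with it (2.04 ± 0.13). Spp1 was lower (1498 ± 827 against 2564 ± 1116 CPM, in 13 of 15 mice) and Inhba lower (17.4 ± 20.2 against 29.8 ± 26.1 CPM, in 12 of 15 mice). After thinning, 78.3% of Mmp12 macrophages and 61.6% of members held a Spp1 UMI, and 12.8% of Nos2 macrophages and 5.05% of members an Inhba UMI. Thbs1 UMIs were held by 50.04% of members, 33.2% of Mmp12 and 23.1% of Nos2 macrophages. These shares pool the cells of all groups, so treatment is mixed in them, while the counts of mice above compare classes within the mouse. The order of the 3 classes thus differed from marker to marker, with members first for Thbs1, second for Spp1 and last for Inhba.

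**Figure D3:**
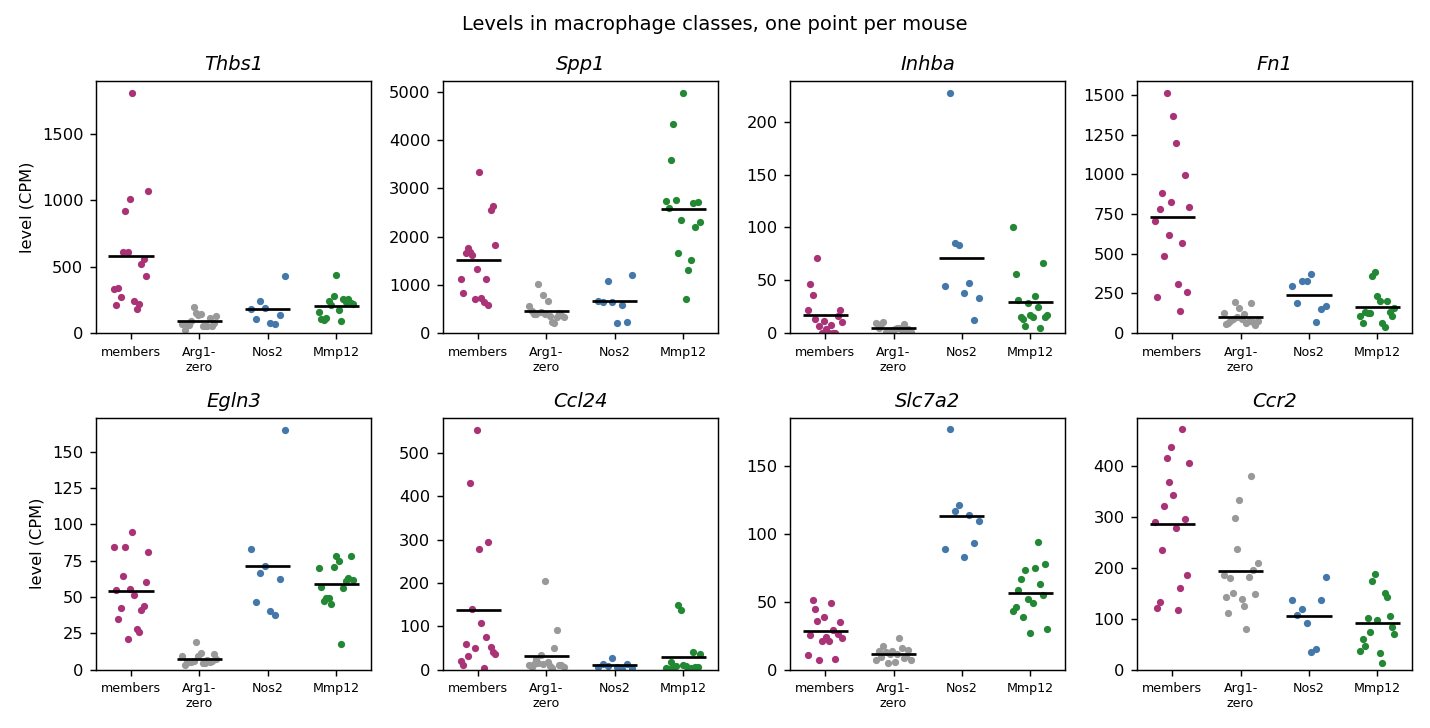
Level (y axes, CPM, linear, 1 panel per gene) in members, Arg1-zero, Nos2 and Mmp12 macrophages, 1 point per mouse, with a bar at the mean. Thbs1 and Fn1 are highest in members (mean 583 and 730 CPM over 16 mice), Spp1 in Mmp12 macrophages (mean 2564 CPM over 15 mice) and Inhba in Nos2 macrophages (mean 71.3 CPM over 8 mice).

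The share of macrophages that were members was then compared between groups of mice. It was 8.31 ± 2.89% (SD, n = 5) in control tumours under isotype and 5.26 ± 1.24% (SD, n = 2) under CD40. In B2m-null tumours it was 8.95 ± 2.96% (SD, n = 5) under isotype and 7.42 ± 2.01% (SD, n = 4) under CD40. The control CD40 pool was loaded on a pair of technical lanes, which are summed here. Of all macrophages in these lanes, 6.17% and 3.34% were members, at lane medians of 2136 and 1715 UMIs per barcode. The SD of the control CD40 mice does not hold that difference between lanes. The 4 groups overlapped, and no difference passed a two-sided exact permutation test (lowest adjusted p = 0.508 over 8 tests). The exact permutation test could go no lower than p = 0.0476 for control CD40 against isotype and p = 0.0667 for the genotypes under CD40. As a share of all cells, members made up 2.74 ± 1.51% and 2.87 ± 1.05% under isotype (SD, n = 5 each, control and B2m-null), 0.898 ± 0.0392% in control tumours under CD40 (SD, n = 2) and 2.23 ± 0.659% in B2m-null tumours under CD40 (SD, n = 4). The control CD40 mice lay below all other mice on that measure, but the exact permutation p was 0.190 against control isotype, with an adjusted p of 0.508.

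Without the 5 exclusion gates, macrophages with at least 3 Arg1 UMIs made up 21.4% of macrophages in control tumours under isotype and 11.02% under CD40, with no overlap between mice (exact permutation p = 0.0952, adjusted p = 0.190). In B2m-null tumours they made up 24.7% and 22.3% (exact permutation p = 0.675). Under CD40 the 22.3% of B2m-null and the 11.02% of control tumours did not overlap either (exact permutation p = 0.0667, the smallest this test can give, adjusted p = 0.190). After thinning to 5000 UMIs, the members were 7.84% and 4.90% of macrophages in control tumours and 8.45% and 8.01% in B2m-null tumours, isotype before CD40. As a share of all cells deep enough to be thinned they were 4.29% and 1.99% in control tumours and 4.51% and 3.87% in B2m-null tumours. With at most 5% mitochondrial UMIs the difference for CD40 in B2m-null tumours was -3.64 points of macrophages (exact permutation p = 0.0635, adjusted p = 0.32), against -1.53 with the limit of 10%.

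Within the members, the 4 proposed markers were examined mouse by mouse, with mice in the order of their lanes and hashtags. Arg1, which the rule used, stood at 1804, 1597, 1602, 1550.3 and 1754 CPM in control tumours under isotype and at 2063 and 1221 under CD40. In B2m-null tumours it stood at 1197, 2022, 1387, 1914 and 2310.0 under isotype and 1713, 1881, 1773 and 1825 under CD40. The groups overlapped throughout. Thbs1 stood at 222, 520.2, 555, 427 and 1067 CPM in control tumours under isotype and at 244 and 179 under CD40. In B2m-null tumours Thbs1 stood at 609, 916, 609, 1012 and 1809 CPM under isotype and 332, 210.0, 336 and 275 under CD40. Every B2m-null CD40 mouse was thus below every B2m-null isotype mouse, and Thbs1 fell under CD40 in B2m-null tumours by 1.67 ± 0.32 on the log2 scale (edgeR adjusted p = 0.00122). That value lay between -2.14 and -1.08 when single mice or lanes were left out, the smallest change being that without the second B2m-null isotype lane (edgeR adjusted p = 0.0316). Without B2m-null isotype mouse 2, whose members held the most fibroblast UMIs, Thbs1 changed by -1.71. In control tumours Thbs1 differed by -1.33 ± 0.44 (edgeR adjusted p = 0.0847), and the effects of CD40 in the 2 genotypes did not differ by test (-0.34 ± 0.52, edgeR adjusted p = 0.835).

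Spp1 stood at 1115, 589.8, 2544, 2634 and 1824 CPM in control tumours under isotype and 723 and 637 under CD40. In B2m-null tumours Spp1 stood at 1675, 1621, 701, 1325 and 3337 CPM under isotype and 1111, 834, 1655 and 1765 under CD40. The groups overlapped within each genotype, and Spp1 passed no test (edgeR adjusted p = 0.146 in control and 0.714 in B2m-null tumours). Inhba was at 0, 0, 16.2, 21.6 and 10.9 CPM in control tumours under isotype and 0 and 7.40 under CD40. In B2m-null tumours Inhba was at 71.3, 7.05, 0, 11.8 and 4.14 CPM under isotype and 22.1, 46.2, 35.8 and 13.3 under CD40. It went undetected in 4 of the 16 mice and passed no test (edgeR adjusted p = 0.653 and 0.223). Fn1 ranged from 141 to 1515 CPM over all mice with overlap of all groups.

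**Figure D4:**
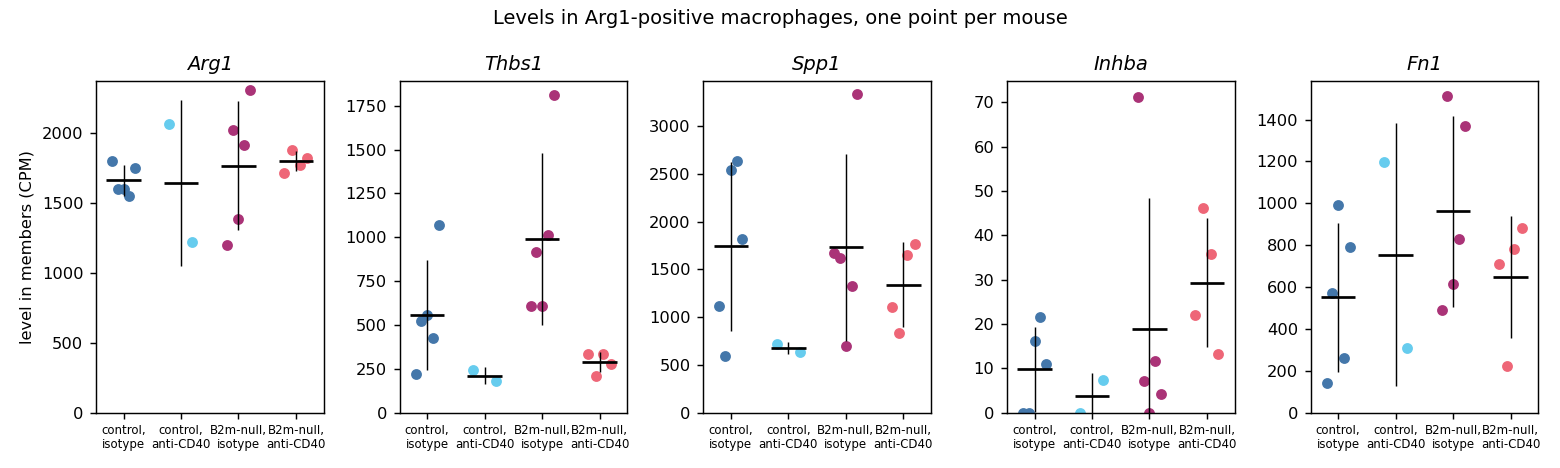
Level (y axis, CPM) of marker and related genes in the members of each mouse (points) by group (x axis), with the mean and SD (SD drawn from 2 to 5 mice). Arg1 overlaps in all groups, while the 4 B2m-null CD40 mice lie at 210 to 336 CPM of Thbs1, below the 609 to 1809 CPM of the B2m-null isotype mice.

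For the effects of CD40 and of the tumour genotype on members, counts were summed per mouse and fitted in 1 edgeR model over the 4 groups (6663 genes, adjusted p under 0.05). In B2m-null tumours, 407 genes rose under CD40 (6.11% of those tested) and 341 fell (5.12%). The total of 748 was 387 without the first B2m-null CD40 lane, 396 without the second and 419 without the first B2m-null isotype lane. Short transcripts stood apart: the median change was 0.31 for genes under 1000 bases and -0.23 for genes of 4000 bases or more, of which 35 rose and 235 fell. Neutrophil genes summed to 59.9 to 250 CPM in the B2m-null CD40 members against 28.3 to 88.8 under isotype. Endothelial genes did not overlap (15.5 to 24.4 against 28.5 to 77.5 CPM), and conventional dendritic cell genes (2.22 to 60.9 against 17.2 to 212) and platelet genes (0 to 15.5 against 14.2 to 340 CPM) were lower on average under CD40. Over the assigned members of all groups, the platelet list was almost only Ppbp (895 UMIs, at most 2 of any other gene). Pecam1 (237 UMIs) led the endothelial list. The part of length and of these lists in the calls was not tested.

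Interferon-gamma and MHC class II genes rose in 19 of 24 and fell in none, with a median of 1.20 beside -0.01 over all genes. Gbp2 stood at 121, 91.6, 169.9, 130.1 and 69.8 CPM under isotype and 281, 369.5, 348 and 322 under CD40, with no overlap, and rose by 1.75 ± 0.18 (edgeR adjusted p = 7.76e-07). Igtp, another interferon-induced GTPase gene, rose by 2.09 ± 0.23. Of CD40 and NF-kB genes 7 of 23 rose and none fell. Cd40 itself, whose protein the antibody binds, rose by 1.57 ± 0.27. Ly6i, a surface protein gene of the Ly6 family, rose most among the named genes, from 3.89 ± 3.62 to 149 ± 122 CPM (SD, n = 5 and 4), or by 4.85 ± 0.47 (edgeR adjusted p = 5.35e-07). Saa3, an acute-phase protein, rose by 3.76 ± 0.61 and Acod1 by 3.22 ± 0.41.

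In the arginine and polyamine list only Ass1 was called of 19 genes. Ass1 stood at 10.7, 42.3, 7.08, 21.9 and 17.8 CPM under isotype and 90.8, 151, 76.0 and 175 under CD40 in B2m-null tumours, with no overlap, and rose by 2.77 ± 0.29 (edgeR adjusted p = 7.76e-07), between 2.53 and 2.97 with single mice or lanes left out. Slc7a2 (0.42 ± 0.35), Smox (-0.22 ± 0.22) and Odc1 (0.34 ± 0.17) did not pass the test. Of glycolysis genes 4 of 16 rose and none fell, as for Gapdh (0.66 ± 0.15, not called without the first B2m-null isotype or the second B2m-null CD40 lane, highest edgeR adjusted p = 0.125). Of 18 hypoxia genes 1 rose and none fell.

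Genes of alternative activation fell in 5 of 20 and rose in 1. Mrc1, the mannose receptor, stood at 1468, 1684, 1734, 1799.6 and 1466 CPM under isotype and 378, 197, 493 and 623 under CD40, with every CD40 mouse below every isotype mouse, and fell by 1.77 ± 0.22 (edgeR adjusted p = 7.15e-06; -2.38 to -1.34 with single mice or lanes left out). Mgl2, a galactose-binding lectin, fell by 2.19 ± 0.42. Igf1, a growth factor, fell from 178 ± 15.2 to 28.4 ± 20.2 CPM (SD, n = 5 and 4), and the iron exporter gene Slc40a1 from 94.3 ± 53.7 to 3.54 ± 3.05 CPM. Of maturity genes 3 of 22 rose and 6 fell, the latter including Gas6, a ligand for uptake of dying cells (-1.57 ± 0.27), and the transcription factor gene Maf (-0.79 ± 0.15). Matrix genes rose in 3 of 25 and fell in 5. Beside Thbs1 these included Vcan, a matrix proteoglycan (-1.66 ± 0.39, not called without the first B2m-null CD40 or the second B2m-null isotype lane, highest edgeR adjusted p = 0.208). Hmox1 changed by -1.04 ± 0.27, a call lost without either B2m-null CD40 lane or the second B2m-null isotype lane (highest edgeR adjusted p = 0.1005). Cxcl3 changed by -1.68 ± 0.50, a call lost without the same 3 lanes, B2m-null CD40 mice 1, 2 or 3, or B2m-null isotype mice 4 or 5 (highest edgeR adjusted p = 0.747). Cxcl3 and Vcan were also not called by DESeq2 or after thinning, and Vcan not with at least 10 Arg1 UMIs.

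In control tumours, with 2 CD40 mice, 243 genes rose under CD40 (3.65%) and 74 fell (1.11%). The total of 317 was 177 without the first control CD40 mouse and 78 without the second, when the 1 mouse left is taken to vary like the other groups. It was 170 without the first control CD40 lane and 144 without the first control isotype lane. Of the 28 named genes called here, 26 were lost with some mouse or lane left out, and the 2 that were kept in all 24 such fits were Saa3 and Wfdc17. Genes under 1000 bases made up 92 of the 243 that rose but 377 of the 6658 tested genes with a known length, and classical monocyte markers summed to 408 to 561 CPM in the control CD40 members against 649 to 1769 under isotype. Melanoma markers summed to 111 to 294 against 84.4 to 172 CPM, and T cell markers to the values given above. Other lists without overlap were those of conventional dendritic cells (8.56 to 9.25 against 22.9 to 89.1 CPM), neutrophils (74.95 to 81.3 against 19.6 to 68.9), platelets (0 to 3.70 against 12.3 to 47.0) and mast cells and basophils (0 to 0.925 against 3.11 to 8.19). The last list holds few UMIs, 41 of Hdc and at most 8 of any other gene over the assigned members of all groups. Mitf (577 UMIs) led the melanoma list. The part of all these lists in the calls was not tested.

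Saa3 stood at 45.8, 0, 6.48, 7.50 and 12.4 CPM in control tumours under isotype and 402 and 629 under CD40, a rise of 5.68 ± 0.66 (edgeR adjusted p = 4.69e-06). Wfdc17, a secreted protease inhibitor, stood at 1859.7, 1597, 1585, 2057 and 1869 CPM under isotype and 5068 and 6529 under CD40, a rise of 1.84 ± 0.26 (edgeR adjusted p = 4.56e-05). Neither gene's groups overlapped, which the rule that named them required. Interferon-gamma and MHC class II genes rose in 9 of 24 and fell in none, with a median of 0.77 beside -0.02 over all genes. H2-Ab1, an MHC class II chain, rose from 1485 ± 258 to 2860.4 ± 204 CPM (SD, n = 5 and 2), or by 1.09 ± 0.21, and its partner Cd74 by 1.02 ± 0.20. Without the second control CD40 mouse or the first control CD40 lane both were no longer called. Nor were they with at least 10 Arg1 UMIs, and H2-Ab1 was also not called after thinning. Alternative activation genes fell in 3 of 20 and rose in 1. Mrc1 stood at 1019.7, 1556, 1119, 1034 and 794 CPM under isotype and 437 and 487 under CD40 and fell by 1.09 ± 0.28, a call lost without either control CD40 mouse, the first control CD40 lane or the first control isotype lane (highest edgeR adjusted p = 0.395). Mgl2 (-2.97 ± 0.79) and the chemokine gene Ccl2 (-1.25 ± 0.29) fell too, calls also lost without either control CD40 mouse or the first control isotype lane, and for Mgl2 without either control CD40 lane (highest edgeR adjusted p = 0.483 and 0.161). None of the 19 arginine and polyamine genes was called in control tumours by edgeR or by DESeq2, and 3 (Oat, Odc1 and Srm) had an unadjusted edgeR p under 0.05. Ass1 stood at 26.1, 49.1, 32.4, 21.6 and 31.1 CPM under isotype and 17.1 and 32.4 under CD40. The fitted difference uses scaled counts, so its sign can differ from that of these raw levels.

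**Figure D5:**
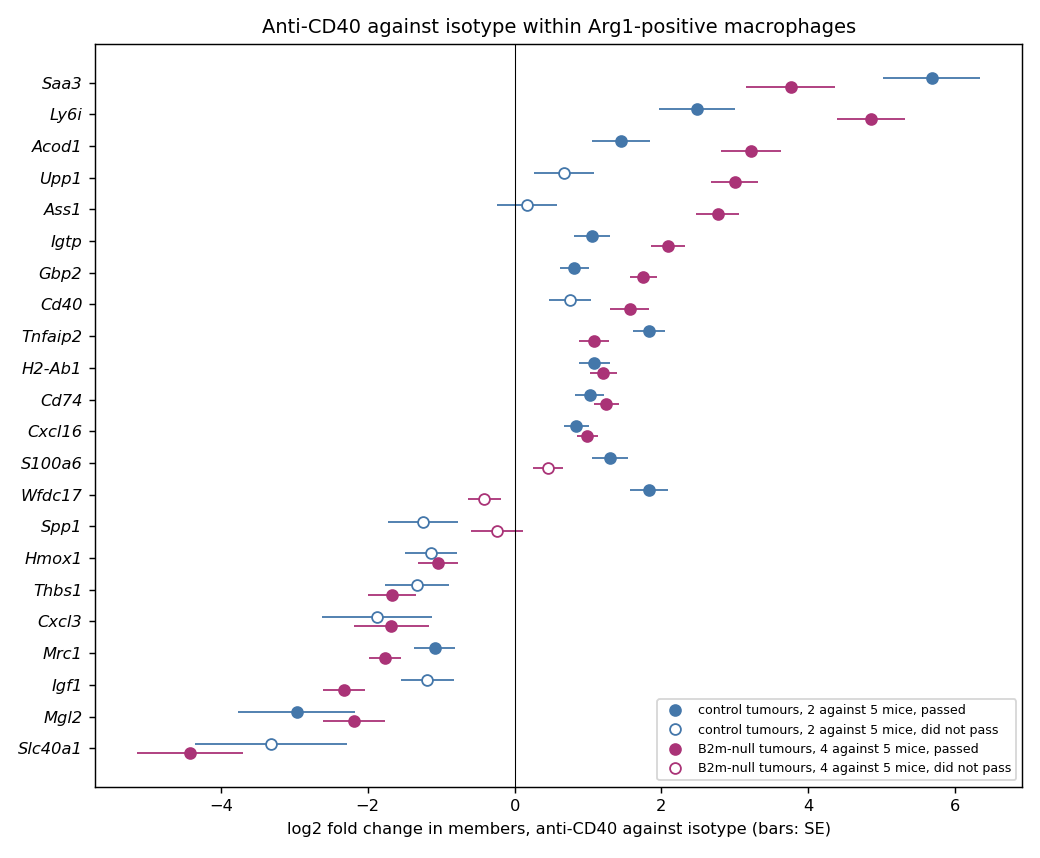
Log2 fold change of CD40 against isotype in the members (x axis, with its SE as a bar) for 22 genes (y axis), in control tumours (blue) and B2m-null tumours (purple), filled where the edgeR adjusted p was under 0.05 and open where not. Ass1 lies at 0.17 in control and 2.77 in B2m-null tumours, Saa3 far to the right at 5.68 in control tumours, and Thbs1 left of 0 in both, filled in B2m-null tumours only.

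The CD40 effects in the 2 genotypes were tested against each other. The difference, B2m-null minus control, was positive in 71 genes (1.07%) and negative in 74 (1.11%). The total of 145 was 43 and 40 without the first and second control CD40 mouse, 80 without the second B2m-null CD40 mouse, 93 without the first B2m-null isotype mouse and 91 without control isotype mouse 3. It was 39, 57, 62 and 79 without the first lane of control isotype, B2m-null CD40, control CD40 and B2m-null isotype. Ass1 differed by 2.60 ± 0.50 (edgeR adjusted p = 0.00507, not called without the first control CD40 lane, where the adjusted p was 0.05004). Upp1, a uridine phosphorylase, differed by 2.32 ± 0.52 (edgeR adjusted p = 0.0182, not called without either control CD40 mouse or the first lane of control isotype or of either CD40 group, highest adjusted p = 0.144). Neither Ass1 nor Upp1 was called after thinning or with at least 10 Arg1 UMIs. The latter limit left 1 control CD40 mouse with at least 20 members. Wfdc17 differed by -2.25 ± 0.35, the ribosomal protein gene Rps29 by -1.58 ± 0.18 and Romo1, a mitochondrial inner membrane protein, by -1.61 ± 0.22, and these 3 kept the call in all 24 fits with a mouse or lane left out, although Wfdc17 and Romo1 were not called with at least 10 Arg1 UMIs. Rps29 stood at 2155 ± 28.1 CPM in control CD40 members (SD, n = 2) and at 831 ± 85.9 CPM in those of control isotype mice (SD, n = 5). In B2m-null tumours it stood at 1265 ± 141 CPM under isotype (SD, n = 5) and 1092 ± 23.1 CPM under CD40 (SD, n = 4). Of the 74 negative genes 29 had transcripts under 1000 bases, and of the 71 positive ones 7.

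Between genotypes under isotype, 36 genes were higher in B2m-null tumours (0.54%) and 54 lower (0.81%). The total of 90 fell to 3 without the first control isotype lane and to 30 and 45 without the second and first B2m-null isotype lane. It was 43 without B2m-null isotype mouse 5, and 50 and 58 without control isotype mice 1 and 3. Of the 36 higher genes 15 had transcripts under 1000 bases. The members' B cell genes summed to a mean of 106 CPM in B2m-null and 49.8 CPM in control tumours, endothelial genes to 52.6 and 24.6, platelet genes to 113 and 28.3 and erythroid genes to 160.5 and 1.22. In the same order fibroblast genes summed to 365 and 48.5 CPM, conventional dendritic cell genes to 107 and 49.6 and T cell genes to 20.3 and 9.95. NK cell genes (39.3 and 46.5) and melanoma genes (92.4 and 116) went the other way. All these lists overlapped between mice, and their part in the calls was not tested. Interferon-gamma and MHC class II genes were lower in 8 of 24 and higher in none, with a median of -0.50 beside 0.00 over all genes. Gbp2 differed by -1.51 ± 0.18 (edgeR adjusted p = 6.22e-05) and kept the call with every mouse or lane left out, as did Selenom, a selenoprotein (-1.27 ± 0.22). Selenom was not called with at least 10 Arg1 UMIs. Gbp2 in control tumours under isotype stood at 294, 414, 245, 317 and 279.7 CPM, above every B2m-null isotype mouse. Psmb9, an immunoproteasome subunit (-0.90 ± 0.16), and Acod1 (-1.90 ± 0.43) were called with all mice but not without the first control isotype or the second B2m-null isotype lane (highest edgeR adjusted p = 0.1003 and 0.306). Acod1 also lost its call without the first B2m-null isotype lane, B2m-null isotype mouse 5 or control isotype mice 1 or 3. Higher were Gas6 (1.12 ± 0.23) and Igfbp4, which binds insulin-like growth factors (1.17 ± 0.19), and neither was called without the first control isotype lane (edgeR adjusted p = 0.150 and 0.0574). Gas6 also lost its call without any other isotype lane or B2m-null isotype mouse 5. Thbs1 (0.84 ± 0.29) did not pass the test, and of the 19 arginine genes none was called by edgeR or DESeq2 and none had an unadjusted edgeR p under 0.05.

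Under CD40, 31 genes were higher in B2m-null tumours (0.465%) and 58 lower (0.87%). None of the 14 named genes among them kept its call with every mouse or lane left out, and the total of 89 was 27 without the first control CD40 mouse and 1 without the second. It was 57, 55 and 57 without B2m-null CD40 mice 1, 2 and 4, 28 without the first B2m-null CD40 lane, 48 and 46 without the first and second control CD40 lane, and 55 and 58 without the first and second control isotype lane. Of the 58 lower genes 24 had transcripts under 1000 bases. Ass1 (2.02 ± 0.37), the protease inhibitor Slpi (3.03 ± 0.70), the chitinase-like Chil3 (2.57 ± 0.56) and the monocyte gene Plac8 (1.59 ± 0.37) were higher in B2m-null tumours, while Wfdc17 (-1.78 ± 0.27) and Cd36 (-1.15 ± 0.23) were lower. With at least 10 Arg1 UMIs, a limit that left 1 control CD40 mouse with at least 20 members, none of these 6 was called. After thinning only Wfdc17 was. Of 14 monocyte genes, Chil3 and Plac8 were the 2 called. Beside these calls, the members' classical monocyte markers summed to 741 to 1326 CPM in B2m-null and 408 to 561 CPM in control tumours under CD40, and melanoma markers to 51.0 to 81.9 against 111 to 294 CPM, neither overlapping, nor did mast cell and basophil genes (6.64 to 16.8 against 0 to 0.925 CPM). The last list holds few UMIs, as given above. The part of these lists in the calls was not tested. No gene of the 24 of the interferon-gamma and MHC class II list was called by edgeR or DESeq2, 3 (Gbp2, Gbp5 and Irf1) had an unadjusted edgeR p under 0.05, and the median was -0.16. The CD40 comparisons share mice with the genotype comparisons, so these counts are not independent of each other.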

How the data were processed

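CD45+ cells of B16 tumours were sequenced as droplet libraries in 8 lanes. The deposited values were UMI counts per gene and barcode, with hashtag counts in matched libraries, which the authors made with Cell Ranger 3.0.0 and bcl2fastq 2.20.0.422 against mm10, per the submitters' processing notes. Gene counts and hashtag counts were used as deposited. Barcodes with fewer than 200 genes or over 10% mitochondrial UMIs were dropped. A barcode with more than 1 hashtag over 2.5 SD above its background was called a doublet. Other barcodes with at least 20 hashtag counts were assigned to a mouse by a mixture model at a posterior of at least 0.9. The model also had to match the hashtag farthest above its background. Hashtag doublets were left out of every per-mouse value, and no other doublet caller was run. Each hashtag was taken as 1 mouse, so p-values measure the spread between mice of 1 experiment. Several mice shared a lane, each lane held 1 group, and the main tests between groups took mice of a lane as independent. Lanes of a group differed. Members made up 6.45% and 11.6% of macrophages in the control isotype lanes, 7.01% and 10.5% in B2m-null isotype and 8.36% and 5.80% in B2m-null CD40. All members count in numbers of cells. The pooled shares of cells with a UMI and the Arg1 bins use only cells deep enough to be thinned, with or without a mouse. For these the rule was applied again to the thinned counts, which gave 1327 members. Only assigned members count in tests, in levels per mouse and in UMI totals of single genes.

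Counts of members were summed per mouse (at least 20 members) and fitted with edgeR 4.0.16 in R 4.3.3 (TMM scaling, filterByExpr, quasi-likelihood test, Benjamini-Hochberg over all genes tested). The standard error is the log2 fold change over the square root of its F statistic, and CPM values in the text are raw sums scaled to 1000000. Classes were compared within mice with the mouse as a block. T cells for background shares held at least 2 Cd3 UMIs and no UMI of C1qa, C1qb or C1qc. T cell barcodes with any C1q UMI thus do not count in these shares. The members and the 18 gene lists (403 genes) were chosen with earlier results of these data known. Named genes were up to 6 per direction with the largest change (adjusted p under 0.05, mean of at least 20 CPM, mice of the groups not overlapping or the same sign in every mouse). To these came up to 2 per direction and list with at least 3 called genes, and always Inhba, Thbs1, Spp1 and the arginine list. Samples labelled with the same replicate number were checked for pairing between 3 pairs of groups, control CD40 left out. The differences between the first and second lane correlated at 0.023, 0.076 and 0.080 over genes. With 1 such difference per group, this cannot show whether the numbers pair samples, and the main fits used no such pairing. Alternatives were DESeq2 1.42.0, other thresholds, depths, filters, units and left-out mice or lanes. The fits without genes under 1000 bases and without cells holding melanoma UMIs were added after seeing the data. The counting and test steps were tested on simulated data.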

Additional observations from a re-analysis of the deposited data

Results flagged for a closer look

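In groups of 4 or 5 mice, 1 mouse stood far from the others in 14 of 117 checks of a gene or marker list in the members. The cut-off singles out about 1 in 20 for independent, normally spread values. These low and uneven levels need not be such, so the count is no test against chance. Among marker lists of other cells, fibroblast genes reached 1747 CPM in 1 B2m-null isotype mouse and 194 CPM in 1 control isotype mouse, against at most 49.6 and 16.4 CPM in the next mouse. NK cell genes reached 56.4 CPM in 1 B2m-null CD40 mouse, and the next mouse had 4.44 CPM. Mast cell and basophil genes reached 17.2 CPM in 1 B2m-null isotype mouse and 8.19 CPM in 1 control isotype mouse. In B2m-null tumours under CD40, endothelial genes were at 15.5 CPM in the lowest mouse and erythroid genes at 1.09 CPM in the only mouse where they were detected.

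Among single genes, Inhba stood at 71.3 CPM in 1 B2m-null isotype mouse, and the next mouse had 11.8 CPM. Among control isotype mice the highest level was apart from the other 4 in Cxcl3 (459.9 CPM), Saa3 (45.8 CPM), Slc40a1 (93.3 CPM) and Ccl24 (295 CPM), and it was not the same mouse in each gene. Ly6i stood at 332 CPM in the highest B2m-null CD40 mouse, against 95.2 CPM in the next. Igf1 stood at 204.6 CPM in the B2m-null isotype mouse farthest from its group.

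The effect of CD40 on the members differed between tumour genotypes in 71 genes with a larger and 74 genes with a smaller value in B2m-null tumours (edgeR interaction term). Beyond Ass1 (2.60 on the log2 scale), Upp1 (2.32), Wfdc17 (-2.25), Rps29 (-1.58) and Romo1 (-1.61), the interferon-induced Isg15 differed by 1.86. Of 14 monocyte genes tested 3 were called, Ly6c2 (2.78), Ms4a4c (1.68) and Plac8 (1.77), with a median of 0.30 over the list, and classical monocyte markers summed to 408 to 561 CPM in the control CD40 members. Also positive were Ms4a6b (1.78) and the kinetochore gene Spc24 (2.66). Negative differences were measured for Cdk17, a kinase (-1.58), Ppp3r1, a calcineurin subunit (-1.53), and Rnf128, a ubiquitin ligase (-1.54). The comparison rests on 2 control CD40 mice from 1 pool, which cannot be told apart from their group, and of the 14 named genes 3 kept the call with every mouse or lane left out.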

How the results depend on the processing

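Counts of called genes moved by over 1.5 times under several alternatives. With members redefined at 10 or more Arg1 UMIs, they were 117 for CD40 in B2m-null tumours (748 in the text), 47 for CD40 in control tumours (317), 3 and 0 between genotypes under isotype and CD40 (90 and 89), 2 for the difference of CD40 effects (145), 285 against Nos2 macrophages (538) and 1407 against Mmp12 macrophages (2141). After thinning to 5000 UMIs they were 289 and 99 (317) for CD40 in B2m-null and control tumours and 26 and 13 (89) between genotypes under isotype and CD40. They were 26 (145) for the difference of CD40 effects and 206, 1131 and 1417 (2339) against Nos2, Mmp12 and Arg1-zero macrophages. The thinned fits kept members of the main rule that held at least 5000 UMIs. Depth and the number of mice with at least 20 members could thus change together. The rule applied again to thinned counts gave 18 members in control CD40 mouse 1 and 9 and 11 in B2m-null isotype mice 2 and 3. These fits did not use that set, so its numbers do not show which mice they kept. With at least 50 members per mouse they were 404 for CD40 in B2m-null tumours, 38 between genotypes under isotype and 69 for the difference. With lanes as the unit they were 30 and 48 between genotypes and 44 for the difference, and with no filter on low counts 222, 195 and 281. Without short transcripts they were 171 for CD40 in control tumours and 44 between genotypes under CD40. Against Nos2 macrophages DESeq2 called 293, cells with 5000 to 20000 UMIs gave 275 and cells without melanoma UMIs 355, and against Mmp12 macrophages the last gave 1358. Without the replicate block the class comparisons called 1052 (Arg1-zero), 153 (Nos2) and 1107 (Mmp12), and with a replicate block CD40 in B2m-null tumours gave 772 and the genotypes under isotype 88. Pmel and Dct turned to 0.21 and 0.45 in cells with 5000 to 20000 UMIs. No other named gene changed sign among those with a call, over 33 alternatives of the condition fits and 17 of the class fits. Calls of genes named in the report were lost as follows. Against Arg1-zero macrophages Car9, Il18, Slc7a1, Sms and Aldh18a1 lost theirs after thinning, Car9, Cebpd, Igf1, Il18, Slc7a1 and Sms with at least 10 Arg1 UMIs, and Ass1, Car9, Ckb, Igf1, Lpl, Paox, Pparg, Sirpa and Srm without the block. Car9 was also not called by DESeq2, Aldh18a1, Car9, Cebpd, Mlana and Sms not in cells with 5000 to 20000 UMIs, Aldh18a1 and Car9 not with lanes as the unit, and Aldh18a1, Car9 and Slc7a1 not without cells holding melanoma UMIs. Slc7a2 against Mmp12 macrophages was not called with at least 10 Arg1 UMIs, nor Ltc4s against Nos2 macrophages without the block. For CD40 in B2m-null tumours Cxcl3, Gapdh and Vcan lost theirs after thinning, Cxcl3 and Vcan by DESeq2, Gapdh with at least 50 members per mouse, and Cd40, Gapdh, Gas6 and Vcan with at least 10 Arg1 UMIs. In control tumours thinning ended the calls of Ccl2, H2-Ab1, Mgl2 and Mrc1, and at least 10 Arg1 UMIs those and the calls of Cd74 and Wfdc17, while Mrc1 was also not called with lanes as the unit or at least 50 members per mouse. In fits that use control CD40, lanes as the unit left 1 pool of that group and at least 10 Arg1 UMIs 1 mouse. Between genotypes under isotype Acod1, Gas6 and Igfbp4 lost theirs after thinning or with lanes as the unit, these, Psmb9 and Selenom with at least 10 Arg1 UMIs, and Acod1 and Gas6 with at least 50 members per mouse. For the difference of CD40 effects Ass1 and Upp1 lost theirs after thinning, Upp1 with at least 50 members per mouse, and Ass1, Romo1, Upp1 and Wfdc17 with at least 10 Arg1 UMIs. Between genotypes under CD40 Ass1, Cd36, Chil3, Plac8 and Slpi lost theirs after thinning, and these and Wfdc17 with at least 10 Arg1 UMIs. The cause of these shifts was not tested.

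With 1 mouse or lane left out, called genes ran from 387 to 734 for CD40 in B2m-null tumours, 78 to 355 for CD40 in control tumours, 3 to 98 and 1 to 106 between genotypes under isotype and CD40, and 39 to 197 for the difference. Against Arg1-zero, Nos2 and Mmp12 macrophages they ran from 1764 to 2231, 332 to 538 and 1621 to 2075. In percentage points of macrophages, the member share differed by -5.48 to -1.33 for CD40 in control tumours, -3.60 to 0.144 for CD40 in B2m-null tumours, -1.78 to 2.71 between genotypes under isotype and 0.443 to 3.90 under CD40. In points of all cells these were -3.07 to -1.02, -1.63 to 0.0205, -1.10 to 1.13 and 0.842 to 1.82. Under other thresholds, depths and units, with the gates kept, the CD40 difference ran from -5.37 to -1.36 in control and from -3.64 to -0.439 in B2m-null tumours. In points of all cells it ran from -3.27 to -0.743 and from -1.22 to -0.284. The genotype difference under isotype, 0.640 of macrophages and 0.133 of cells, turned to -1.36 and -0.408 with 1 Arg1 UMI as the threshold and to -0.293 and -0.186 with lanes as the unit. Depth limits low genes most: Inhba had 185 UMIs in the members assigned to a mouse, and mice with few members, down to 21, carry wide counting error.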
